A study of Mus musculus with 3 samples.

Results

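The genes described here encode transcription factors and markers of naive and stem-like memory T cells, and were followed in stimulated mouse CD8+ T cells. They are Tcf7, Lef1, Bach2, Foxo1, Satb1, Myb, Foxp1, Slamf6, Dapl1 and Actn1, taken by gene symbol from the deposited expression table, and all 10 were found among its 17121 genes. The RNA came from wild-type CD8+ T cells, the cytotoxic arm of the T cell system, isolated from spleen and lymph node and examined on day 3 of culture. The aged TRM sample came from mice of 18 months. Its cells were stimulated with anti-CD3/28 antibodies (1 µg/ml), which engage the T cell receptor and a co-stimulatory receptor. They also received IL-15 (20 ng/ml) and TGFβ (5 ng/ml), a cytokine pair used to steer cells towards a tissue-resident memory (TRM) state. The young TRM sample had the same antibodies and cytokines but came from mice of 6 weeks. Young TCR, also from mice of 6 weeks, had the antibodies alone. The labels do not state the strain or whether animals were pooled, and a culture of aged cells with antibodies alone was not analysed here.

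Naive T cells and the stem-like part of the memory pool are kept in a resting, self-renewing state by a small group of DNA-binding proteins. TCF1, the product of Tcf7, and its relative LEF1 keep the naive gene programme accessible. FOXO1 drives homing and survival genes and leaves the nucleus when receptor signals activate the kinase AKT, so that its activity is not read from its RNA alone. BACH2 holds back effector genes, and FOXP1 enforces quiescence. Receptor stimulation commonly lowers this group as cells become effectors, while part of it persists in cells that can later renew the response.

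Each of the 3 groups had 1 sample, so the spread between mice or cultures is unknown and no p-value is given. The table gave 40385477 reads to aged TRM, 36021887 to young TRM and 39915663 to young TCR, each split over 2 numbered columns that were read as repeat measurements of 1 sample. Levels are in CPM (counts scaled to a common library total with trimmed-mean factors, given for the 10 genes with their 95% exact Poisson interval). The authors' TPM, which also divides by transcript length, was used to rank genes and wherever TPM is printed. CPM of different genes, and sums of CPM over a list, are not corrected for length. A gene was called higher or lower where its CPM, with a pseudocount of 1, differed 2-fold or more (log2 ratio past 1 either way) and 1 lay outside the ratio's 95% interval, computed by the Clopper-Pearson method. All intervals cover counting error only. Within a sample the columns of a gene of the group differed by at most 1.28-fold (Dapl1 in young TRM), and none of the 10 was called between columns. The cells carried their label's markers, with Cd8a at 1632, 1822 and 747 CPM and Cd3e at 364, 380 and 302 CPM in aged TRM, young TRM and young TCR, against 11.6, 12.4 and 10.5 CPM for Cd4.

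With IL-15 and TGFβ, Slamf6 and Satb1 fell and the other 8 genes of the group were not called. Slamf6 was 4.36-fold lower and Satb1 2.21-fold lower in young TRM than in young TCR. The calls were 0 higher and 2 lower of 10, where 7.78% of 11588 tested genes were called, 4.18% higher and 3.60% lower. The median log2 ratio of the group was -0.06, against 0.02 over all tested genes, but its members spread widely around that value. The median size of their log2 ratios was 0.59, against 0.23 over all tested genes, and 5 of 10 were past 0.5 in size, against 22.6% of all tested genes. In bulk RNA, fewer cells of a kind and less RNA per cell cannot be told apart. Listed B and plasma cell markers were also lower in young TRM, at a sum of 26.9 CPM against 98.3 CPM in young TCR, and their part in the Slamf6 and Satb1 results was not tested. With age, 0 of 10 were called in either direction, where 3.40% of 11575 tested genes were called, 2.25% higher and 1.15% lower in aged TRM than in young TRM. Log2 ratios lay below 0 for 8 of the 10 genes in that comparison and above 0 for 2, where 49.2% of all tested genes lay above 0. Their median was -0.16, against -0.01 over all tested genes.

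**Figure D1:**
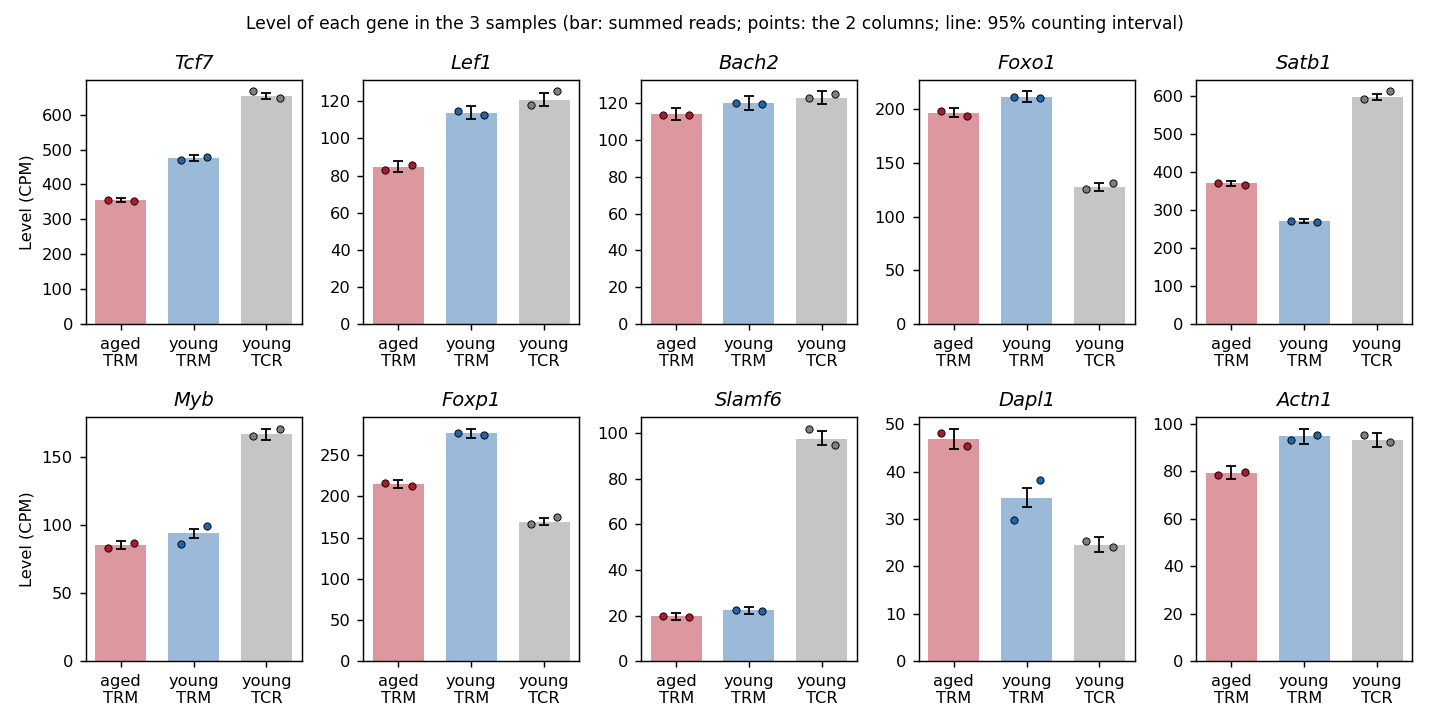
Level of each gene in CPM (linear axes from 0) in aged TRM, young TRM and young TCR. Bars are the summed reads of the 1 sample of each group, points its 2 columns and black lines 95% counting intervals. Slamf6 stands at 19.7 and 22.4 CPM in aged TRM and young TRM against 97.6 CPM in young TCR, while Bach2 lies between 114 and 123 CPM in all 3 samples.

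Slamf6 encodes Ly108, a self-binding receptor of the SLAM family that signals through the adaptor SAP and is widely used to mark stem-like CD8+ T cells. It lies on the plus strand of chromosome 1, positions 171917458 to 171948958 of GRCm38.p6. It had 19.7 CPM in aged TRM (18.3 to 21.1), 22.4 CPM in young TRM (20.8 to 24.0) and 97.6 CPM in young TCR (94.6 to 101). Both cytokine-treated samples were low and the sample with antibodies alone was high, with no overlap of the columns. In young TRM it was 4.36-fold lower than in young TCR (4.04 to 4.72, log2 ratio -2.08), and 71 of 11588 tested genes had a lower ratio. The log2 ratio of aged TRM to young TRM was -0.18, a 1.14-fold difference (1.03 to 1.26 lower).

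Slamf6 sits in a cluster of related receptor genes on chromosome 1, and its neighbours did not share the size of its difference. Ly9 had 55.3 CPM in aged TRM, 75.9 in young TRM and 143 in young TCR, with a log2 ratio of -0.91 for the cytokines. Cd84 had 45.7, 57.2 and 86.9 CPM in the same order of samples, with a log2 ratio of -0.59. Neither was called. Slamf7, Slamf1 and Cd48 had cytokine log2 ratios of -0.33, -0.03 and 0.08, and Cd244a, at 3.66 CPM in young TRM and 1.41 CPM in young TCR, had 0.95. Sh2d1a, which encodes SAP, fell to 11.7 CPM in young TRM against 43.6 CPM in young TCR (log2 ratio -1.82) and had 10.8 CPM in aged TRM.

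Satb1 encodes a chromatin organiser that shapes T cell gene expression from the thymus onwards. It lies on the minus strand of chromosome 17, positions 51736187 to 51833290. It had 370.5 CPM in aged TRM (365 to 376), 271 CPM in young TRM (265 to 276) and 598 CPM in young TCR (591 to 606). Young TRM was lowest, aged TRM lay between, and the columns of the 3 samples did not overlap. In young TRM it was 2.21-fold lower than in young TCR (2.16 to 2.26, log2 ratio -1.14), past 2-fold in all 4 pairings of the columns. Aged TRM was 1.37-fold higher than young TRM (1.33 to 1.40, log2 ratio 0.45), which is beyond counting error but was not called. Of the 10 genes, Satb1 and Dapl1 were the ones with more RNA in aged TRM than in young TRM.

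The stretches upstream of the annotated starts of Slamf6 and Satb1, the genes that fell, are shown from RefSeq (GRCm38.p6) on the gene's own strand, ending at the base before the gene. Letters of the TCF/LEF motifs CTTTGAA and CTTTGAT, the FOXO motif GTAAACA and the SMAD motifs GTCTAGAC and CAGACA were searched on both strands, and no match to any of them was found in these stretches, which says nothing about binding by those factors.
Slamf6, chr1:171917212-171917457, plus strand: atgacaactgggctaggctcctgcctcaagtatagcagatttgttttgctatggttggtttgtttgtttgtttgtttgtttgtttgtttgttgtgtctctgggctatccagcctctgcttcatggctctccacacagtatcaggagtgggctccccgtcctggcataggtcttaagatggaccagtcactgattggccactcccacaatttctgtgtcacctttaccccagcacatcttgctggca
Satb1, chr17:51833291-51833540, minus strand: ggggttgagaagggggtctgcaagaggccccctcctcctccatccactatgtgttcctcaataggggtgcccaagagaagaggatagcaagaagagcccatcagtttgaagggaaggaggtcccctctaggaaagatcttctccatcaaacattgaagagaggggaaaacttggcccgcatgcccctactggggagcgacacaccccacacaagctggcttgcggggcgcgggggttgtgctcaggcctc
The gene table does not tell which of the 5 annotated Satb1 starts was in use, and the one shown lies furthest upstream.

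Myb, which encodes a transcription factor needed for stem-like CD8+ T cells to persist, was lower with the cytokines but did not reach the 2-fold limit. It is on the minus strand of chromosome 10, positions 21124930 to 21160984. Its level was 85.2 CPM in aged TRM (82.4 to 88.1), 93.8 CPM in young TRM (90.7 to 97.1) and 166 CPM in young TCR (162 to 170.4). Aged TRM and young TRM overlapped in their columns, and both lay below young TCR. Young TRM was 1.77-fold lower than young TCR (1.70 to 1.85), a log2 ratio of -0.82 that ran from -0.97 to -0.72 over the column pairings. A lower ratio was found for 5.20% of tested genes. The age ratio was -0.14 on the log2 scale, with pairings between -0.25 and 0.00. Its relative Mybl2, a cell cycle factor, had 76.4, 68.8 and 83.7 CPM in aged TRM, young TRM and young TCR.

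Tcf7 was the most abundant of the 10 genes per transcript length in each sample, and its level differed stepwise between them. The gene is on the minus strand of chromosome 11, positions 52246527 to 52283383. Its level was 355 CPM in aged TRM (349 to 361), 476 CPM in young TRM (468 to 483) and 653 CPM in young TCR (645 to 661), with no overlap between columns. Neither step was called, with log2 ratios of -0.46 for the cytokines and -0.42 for age. Aged TRM, which differs from young TCR in age and cytokines together, had 1.84-fold less Tcf7 than young TCR (1.80 to 1.88). Tcf7 ranked 550th of all genes by TPM in aged TRM, 391st in young TRM and 261st in young TCR.

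Lef1, on the plus strand of chromosome 3 at positions 131110297 to 131224357, was not called in either comparison. It had 84.9 CPM in aged TRM (82.1 to 87.8), 114 CPM in young TRM (110.3 to 117) and 121 CPM in young TCR (118 to 124). The young samples lay close together and aged TRM below both. Its log2 ratio for age was -0.42, and for the cytokines -0.09. The related factors Tcf7l1 and Tcf7l2 had at most 1.51 and 0.455 TPM in any sample, against at least 267 TPM for Tcf7 and 69.1 TPM for Lef1.

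Genes that act with TCF1 and LEF1 were called at shares near those of all tested genes. Of 24 tested cofactor and Wnt pathway genes, 1 was called higher and 0 lower with the cytokines, where 7.78% of all tested genes were called, at a median log2 ratio of 0.28 against 0.02 over all tested genes. The called gene was Tle1, which encodes a Groucho co-repressor, at 10.02 CPM in young TRM and 4.44 CPM in young TCR (log2 ratio 1.02). It was no longer past 2-fold with scaling by totals (0.97), a pseudocount of 5 (0.67), the authors' TPM (0.87) or column 2 alone (0.99). With age 0 of 24 were called, where 3.40% of all tested genes were, at a median of -0.11. Axin2, a common readout of beta-catenin signalling, had 4.28, 7.01 and 5.38 CPM in aged TRM, young TRM and young TCR.

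The genes whose 3 levels ran most like those of Tcf7 were Mettl8, Kcnh6, Tmem229b, Cmah and Nrros. Likeness was the distance between log2 ratios to young TCR, over 3 samples and 8458 genes of at least 10 CPM in each, and these 5 lay within 0.0859 of Tcf7. Cmah, which encodes an enzyme that modifies sialic acid, had 177 CPM in aged TRM, 245 CPM in young TRM and 320 CPM in young TCR. With 3 samples many genes can share such a pattern, and the likeness is given as a description only.

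**Figure D2:**
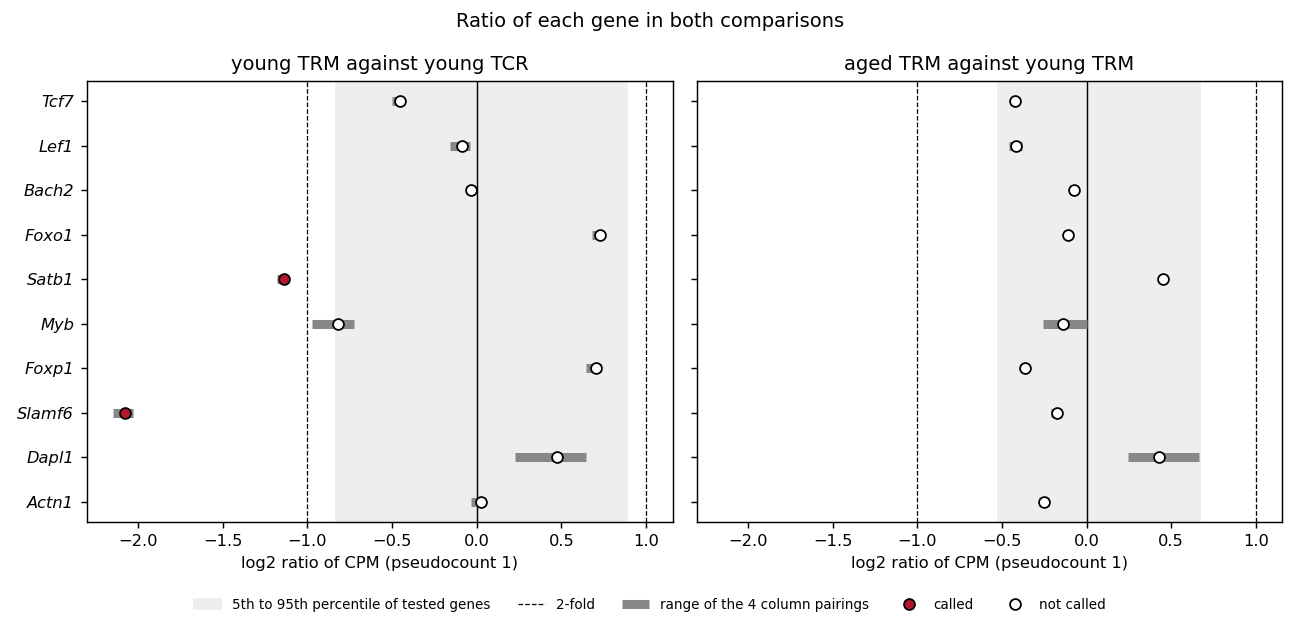
Log2 ratio of CPM (pseudocount 1) of each gene for young TRM against young TCR and for aged TRM against young TRM. Points are the summed reads, thick grey lines the range over the 4 pairings of columns, dashed lines the 2-fold limits and the shaded band the 5th to 95th percentile of tested genes. Slamf6 (-2.08) and Satb1 (-1.14) lie past 2-fold in the first comparison, and all 10 genes lie inside the band in the second.

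Foxo1 and Foxp1, both forkhead factors, were the members with the highest cytokine ratios, though below 2-fold. Foxo1, on the plus strand of chromosome 3 at 52268337 to 52350109, had 197 CPM in aged TRM (193 to 201), 212 CPM in young TRM (207 to 217) and 128 CPM in young TCR (124 to 131). Foxp1, on the minus strand of chromosome 6 at 98925342 to 99522746, had 215 CPM in aged TRM (211 to 219.7), 277 CPM in young TRM (271 to 282) and 169 CPM in young TCR (166 to 174). For both genes young TCR was lowest and young TRM highest, without overlap of the columns. The ratio of young TRM to young TCR was 1.66-fold for Foxo1 (1.60 to 1.72, log2 ratio 0.73) and 1.63-fold for Foxp1 (1.58 to 1.68, log2 ratio 0.70). With age the log2 ratios were -0.11 for Foxo1 and -0.36 for Foxp1.

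Per transcript length Foxo1 was above its relatives Foxo3 and Foxo4. It had 71.3, 74.3 and 45.04 TPM in aged TRM, young TRM and young TCR, where Foxo3 had 18.8, 22.6 and 23.2 TPM and Foxo4 15.6, 18.3 and 20.1 TPM. Among the Foxp genes, Foxp4 had 31.4, 30.2 and 21.0 TPM. Foxp3, the regulatory T cell factor, rose to 33.6 CPM in young TRM against 1.95 CPM in young TCR, and fell to 3.71 CPM in aged TRM against that level in young TRM. It was the one paralogue called in both comparisons. Of 17 tested paralogues 1 was called higher and 1 lower with the cytokines, the lower one being Actn2 (3.41 CPM in young TRM and 10.9 CPM in young TCR), and 0 and 1 with age. Over all tested genes 4.18% were called higher and 3.60% lower with the cytokines, and 2.25% and 1.15% with age. The Actn2 call ended with a pseudocount of 5 (log2 ratio -0.92).

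Genes known as FOXO1 targets or as quiescence genes included some of the larger differences with age, while Foxo1 itself was not called. With age 4 of 24 tested genes were called lower and 0 higher, where 1.15% and 2.25% of all tested genes were. The median log2 ratio was -0.34 against -0.01 over all tested genes. Klf2, a factor that sustains recirculation, fell to 43.8 CPM in aged TRM against 151 CPM in young TRM (log2 ratio -1.76), S1pr1, the egress receptor, to 14.5 CPM against 50.2 CPM (-1.72), and Klf3 to 15.2 CPM against 39.5 CPM (-1.32). With the cytokines 2 were called higher and 1 lower at a median of 0.11, where 4.18% and 3.60% of all tested genes were called. Klf2 rose to 151 CPM in young TRM against 35.0 CPM in young TCR, and Bcl6, a repressor tied to memory and follicular fates, fell to 3.01 CPM against 23.9 CPM. Trib2, which encodes a pseudokinase, rose to 64.7 CPM against 30.4 CPM, a call that ended with a pseudocount of 5 (0.97). Ccr7, another target, had 346, 500 and 467 CPM in aged TRM, young TRM and young TCR.

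Bach2, whose product restrains effector genes, had the smallest range over the samples among the 10 genes. The gene is on the plus strand of chromosome 4, positions 32238413 to 32586109, and had 114 CPM in aged TRM (111 to 117), 119.9 CPM in young TRM (116 to 124) and 123 CPM in young TCR (119.5 to 126). The highest sample exceeded the lowest by 1.08-fold, and 10.2% of 11777 tested genes had a smaller range. For the cytokines the counting interval of its ratio included 1 (0.937 to 1.02). Its relative Bach1 had 22.3 CPM in aged TRM, 33.9 CPM in young TRM and 21.0 CPM in young TCR. Among 7 tested genes for the small MAF partners of BACH2, SLAM adaptors and the BACH target Hmox1, 1 was called higher with the cytokines and 2 lower. Maff rose to 14.05 CPM in young TRM against 3.95 CPM in young TCR. Hmox1, which encodes haem oxygenase and is repressed by BACH1, fell to 6.50 CPM against 16.03 CPM, a call lost with a pseudocount of 5 (-0.87). With age 0 of 7 were called. Over all tested genes 7.78% were called with the cytokines and 3.40% with age.

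Dapl1, a small gene whose RNA marks naive and early memory CD8+ T cells, had its levels in the reverse order of Tcf7. It lies on the plus strand of chromosome 2, positions 59484653 to 59505020. It had 46.9 CPM in aged TRM (44.8 to 49.0), 34.5 CPM in young TRM (32.6 to 36.5) and 24.5 CPM in young TCR (23.0 to 26.1). The columns did not overlap between samples, but those of young TRM lay 1.28-fold apart at 29.9 and 38.1 CPM. The log2 ratio was 0.48 for the cytokines with pairings between 0.23 and 0.64, and 0.43 for age with pairings between 0.24 and 0.67. Aged TRM had 1.91-fold more Dapl1 than young TCR (1.77 to 2.06), which was not called. Its upstream stretch is shown because it holds 1 match to the FOXO letters, in capitals, that begins 164 bases before the start.
Dapl1, chr2:59484403-59484652, plus strand: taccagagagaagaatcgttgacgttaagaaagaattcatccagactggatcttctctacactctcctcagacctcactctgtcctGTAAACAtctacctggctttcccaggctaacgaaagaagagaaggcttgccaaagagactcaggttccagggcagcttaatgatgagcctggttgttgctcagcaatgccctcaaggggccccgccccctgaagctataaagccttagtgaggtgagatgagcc

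Windows from 250 bases before to 50 bases after an annotated start were given for all 10 genes, 20 windows in all, some of which belong to the same gene and overlap. GTAAACA was found in 3 of the 20, at Tcf7, Myb and Dapl1, and in 3.65% of all 32851 windows in the table. CTTTGAA was found in 1 of 20 (Foxp1) and 5.14% of all windows, CTTTGAT in 0 of 20 and 3.73%, CAGACA in 3 of 20 (Lef1, Bach2 and Satb1) and 21.0%, and GTCTAGAC in 0 of 20 and 0.213%. These are matches of letters and not binding sites. The 10 genes lie on 9 chromosomes, Foxo1 and Lef1 sharing chromosome 3.

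Actn1, which encodes an actinin that cross-links actin filaments and is a marker of naive T cells, differed little. It lies on the minus strand of chromosome 12, positions 80167542 to 80260420, and had 79.3 CPM in aged TRM (76.5 to 82.0), 94.5 CPM in young TRM (91.4 to 97.8) and 93.1 CPM in young TCR (90.1 to 96.1). The young samples overlapped in their columns and aged TRM lay below both. The age ratio was 1.19-fold lower (1.14 to 1.25, log2 ratio -0.25). For the cytokines the log2 ratio was 0.02, with pairings from -0.03 to 0.05, so that no direction can be given. Its widely expressed relative Actn4 was more abundant per length, at 176, 161 and 166 TPM in aged TRM, young TRM and young TCR, against 42.9, 49.6 and 49.0 TPM for Actn1.

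The order of the 10 genes by TPM differed between the samples. In aged TRM Tcf7 (267 TPM) was followed by Dapl1 and Satb1, both at 178 TPM, then by Foxo1 (71.3), Lef1 (69.1), Foxp1 (60.9), Myb (49.6), Actn1 (42.9), Bach2 (25.6) and Slamf6 (23.5). The columns of Dapl1 and Satb1 overlapped there, as did those of Foxo1 and Lef1. In young TRM the order was Tcf7 (343 TPM), Dapl1 (125), Satb1 (122), Lef1 (90.6), Foxp1 (75.8), Foxo1 (74.3), Myb (52.6), Actn1 (49.6), Bach2 (25.9) and Slamf6 (24.9). Dapl1 and Satb1, Foxp1 and Foxo1, and Myb and Actn1 were not separated by their columns. In young TCR Tcf7 (480 TPM) was followed by Satb1 (279), Slamf6 (113), Lef1 (97.1), Myb (94.6), Dapl1 (90.9), Actn1 (49.0), Foxp1 (46.5), Foxo1 (45.04) and Bach2 (27.0). Overlaps there joined Lef1 with Myb, Myb with Dapl1, and Foxp1 with Foxo1. By rank, Slamf6 was number 10 of the 10 in both TRM samples and number 3 in young TCR, and Dapl1 was number 2 in both TRM samples and number 6 in young TCR.

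Aged TRM and young TCR differ in age and in cytokines, so neither can be singled out between them. There 0 of 10 genes were called higher and 1 lower, where 6.45% of 11688 tested genes were called, 4.12% higher and 2.33% lower. The lower gene was Slamf6, 4.96-fold lower in aged TRM (4.60 to 5.36). Satb1, called between the young samples, had a log2 ratio of -0.69 here, and Myb one of -0.96 that passed 2-fold in 1 of 4 pairings of the columns.

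Summed over the 10 genes, the TPM came to 966 in aged TRM, 984 in young TRM and 1322 in young TCR. Between young TRM and young TCR the sum fell by 338 TPM. Satb1 (158 TPM), Tcf7 (137 TPM), Slamf6 (87.7 TPM) and Myb (42.0 TPM) had less RNA in young TRM by these amounts, set against 34.4 TPM more Dapl1, 29.3 TPM more Foxp1 and 29.3 TPM more Foxo1. Between aged TRM and young TRM the sum fell by 17.4 TPM, with 75.8 TPM less Tcf7 and 21.5 TPM less Lef1, but 56.0 TPM more Satb1 and 53.0 TPM more Dapl1.

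**Figure D3:**
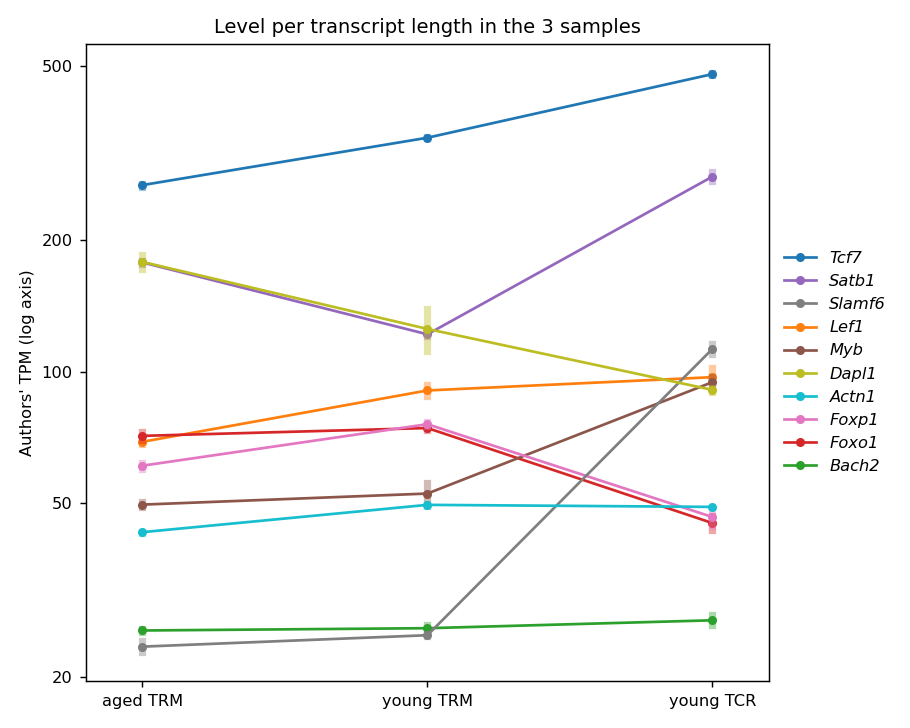
Authors' TPM of the 10 genes (log axis) in aged TRM, young TRM and young TCR. Points are the mean of the 2 columns of a sample, shaded bars span the columns, and lines join 1 gene. The Slamf6 line runs between 23.5 TPM in aged TRM and 113 TPM in young TCR, Dapl1 and Satb1 coincide in aged TRM at 178 TPM, and Bach2 stays between 25.6 and 27.0 TPM.

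A wider list of naive and stem-like memory markers held calls in both comparisons. Of 28 tested markers, all different from the 10, 5 were called higher and 2 lower with the cytokines, at a median log2 ratio of 0.04. The shares over all tested genes were 4.18% higher and 3.60% lower. Igfbp4 (225.6 CPM in young TRM and 6.27 CPM in young TCR), Ly6c1 (52.3 and 9.497 CPM), Treml2 (253 and 70.0 CPM), Id3 and Bcl2 were the higher ones. Sox4 fell to 1.79 CPM in young TRM against 17.3 CPM in young TCR, and Cxcr5 was the other lower gene. With age 0 were called higher and 6 lower, where 2.25% and 1.15% of all tested genes were. The median was -0.43 against -0.01 over all tested genes. Ly6c1 fell to 6.69 CPM in aged TRM against 52.3 CPM in young TRM, Igfbp4 to 53.4 against 225.6 CPM, and Ramp1 to 2.04 against 11.1 CPM. Id3 and Tdrp were also called lower, and their calls ended with a pseudocount of 5 (-0.94 and -0.81). This list and the FOXO1 targets share 3 genes, Ccr7 and Il7r among them, so the lists are not separate evidence.

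Listed regulators and products of effector differentiation were called lower more than higher with the cytokines and higher more than lower with age. With the cytokines 3 of 22 tested genes were called higher and 10 lower, at a median log2 ratio of -0.70. The shares over all tested genes were 4.18% higher and 3.60% lower. Epas1, which encodes HIF-2alpha, fell to 1.31 CPM in young TRM against 105 CPM in young TCR, the inhibitory receptor gene Havcr2 to 8.03 against 61.8 CPM, and the AP-1 factor gene Batf to 11.2 against 62.7 CPM. Cx3cr1, a receptor gene of effector cells, rose to 37.9 CPM against 0.247 CPM. With age 6 of 23 were called higher and 1 lower, at a median of 0.44, where 2.25% and 1.15% of all tested genes were called. Havcr2 rose to 34.3 CPM in aged TRM against 8.03 CPM in young TRM, Gzma, a granzyme gene, to 517 against 167 CPM, and Epas1 to 6.44 against 1.31 CPM, while Cx3cr1 fell to 9.99 against 37.9 CPM. The age calls of Prdm1, Batf and Epas1 ended with a pseudocount of 5 (0.62, 0.88 and 0.86).

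**Figure D4:**
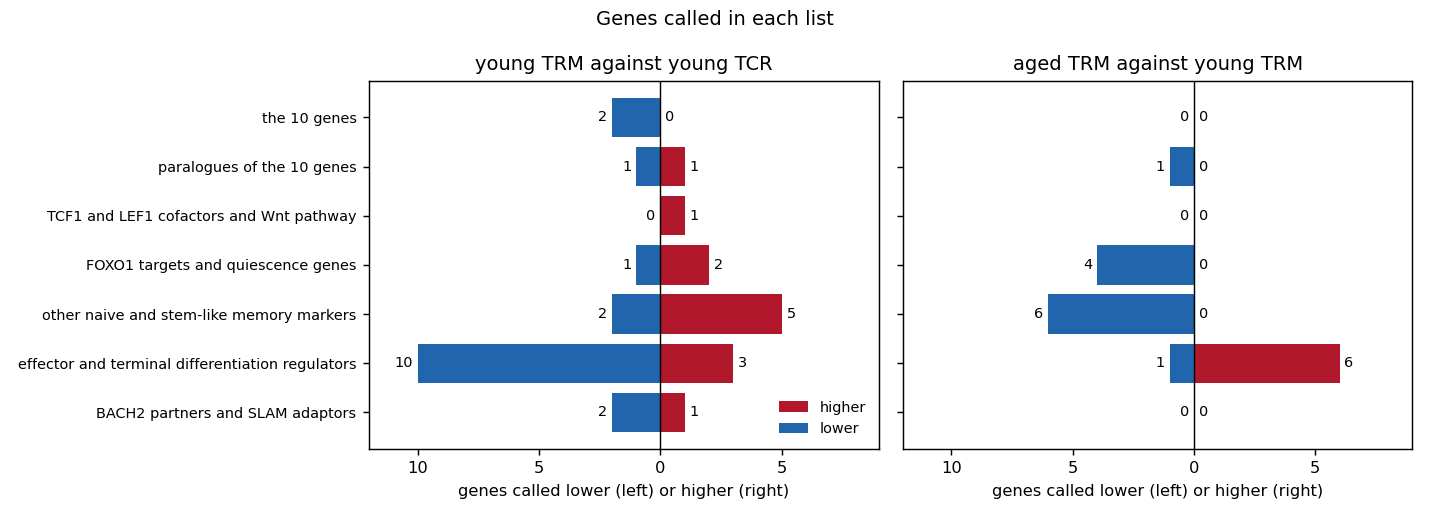
Number of genes called higher (right) or lower (left) in each list, for young TRM against young TCR and aged TRM against young TRM. In the first comparison 2 of the 10 genes are lower, and in the second none of the 10 is called, beside 6 lower genes among the other naive and stem-like memory markers.

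Markers of other cells differed between the same samples as Slamf6 and Satb1. For the counts below, 4.18% of all tested genes were called higher and 3.60% lower with the cytokines. With age these shares were 2.25% and 1.15%. Several of the 10 genes, Bach2 and Foxp1 among them, are also expressed in B cells. Of 11 tested B and plasma cell markers 0 were called higher and 7 lower with the cytokines, and of the sum Pou2af1 alone gave 2.58 CPM in young TRM and 40.7 CPM in young TCR. With age 3 of 9 were called higher and 0 lower, with a sum of 35.6 CPM in aged TRM. The calls of Ms4a1 and Pax5 ended with a pseudocount of 5 (0.35 and 0.37). Markers of NK and innate lymphoid cells summed to 418 CPM in aged TRM, 315 CPM in young TRM and 392 CPM in young TCR. Most of that sum came from Il7r (203, 109 and 139 CPM), Eomes (65.1, 93.5 and 217 CPM) and Kit (110.5, 78.4 and 29.6 CPM), and T cells also express Il7r and Eomes. Of the list 6 of 12 were called higher and 1 lower with the cytokines and 0 of 12 with age. With a pseudocount of 5 or the 10 CPM filter 2 were called higher, since Ncr1, Klrb1c, Tyrobp and Fcer1g, all below 5 CPM, lost their calls. Ncr1 had 1.18, 2.19 and 0.0493 CPM in aged TRM, young TRM and young TCR. The CD4 list had 2 higher and 3 lower of 8 with the cytokines and 0 higher and 1 lower with age, with sums of 2021, 1768 and 1404 CPM in aged TRM, young TRM and young TCR. Il2ra, which activated CD8+ T cells also express, gave 1518, 1117 and 868 CPM of these sums. The myeloid and dendritic list had 2 higher and 1 lower of 8 with the cytokines and 0 with age. Its sums were 120.3, 147 and 68.9 CPM in aged TRM, young TRM and young TCR. Most of the young TRM sum came from the 2 higher genes. These were Ctss (102 CPM in young TRM and 40.5 CPM in young TCR) and Mpeg1 (28.7 and 4.22 CPM). The lower gene was Itgax (3.55 and 8.63 CPM). Adgre1, a macrophage marker, had at most 2 reads in any sample. The part of these cells in the results was not tested. Cell cycle genes had 0 of 24 called in either comparison, with medians of -0.03 for the cytokines and 0.00 for age.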

How the data were processed

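RNA-seq values of 3 samples were used, 1 each of aged TRM, young TRM and young TCR. The deposited table holds estimated counts per gene, which need not be whole, and the authors' TPM. The submitters' processing notes name Bowtie and GRCm38 (mm10), without a version. How reads were counted, the annotation and the filters are not given. Each sample has 2 numbered columns, and no label explains the numbers. They were rounded, summed and treated as repeat measurements, never as biological replicates. A further 24 value columns were not used, and 23 gene symbols damaged by date conversion were restored from their gene IDs.

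Summed counts were scaled by trimmed-mean factors (edgeR 4.0.16) to CPM. A gene was tested in a comparison at 1 CPM or more in either sample. No count model was fitted, since each group had 1 sample. The 10 genes were taken by symbol. From each further list, genes were named by their calls and size of difference among those of at least 5 CPM in one sample, and others named were chosen after their values were seen. The members and lists were chosen with earlier results of these data known. Scripts were tested on simulated data. Alternatives were scaling by totals or by DESeq2 1.42.0 size factors, a pseudocount of 5, no filter, a filter of 10 CPM, the authors' TPM, and either column alone. Pairings of single columns were added after seeing the data. Some genes of the further lists are counted but not reported here by name.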

Additional observations from a re-analysis of the deposited data

How the results depend on the processing

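Among the 10 genes, Slamf6 and Satb1 stayed called lower in young TRM against young TCR, and none was called in aged TRM against young TRM, under all 8 alternatives and all 4 column pairings. No call or called direction changed. Actn1 between young TRM and young TCR, which was not called, ranged from -0.03 to 0.05 in log2 ratio and has no direction. Counts over all genes depended on how low counts were handled. With a pseudocount of 5, 486 genes were called between young TRM and young TCR (296 higher, 190 lower), against 901, and 149 between aged TRM and young TRM (87 higher, 62 lower), against 393. With a filter of 10 CPM, 583 were called between young TRM and young TCR (234 lower) and 214 between aged TRM and young TRM (123 higher), since fewer genes were tested. Of 70 called results for listed genes, a pseudocount of 5 ended the call for 23, the filter of 10 CPM for 16 and TPM for 7. With 1 sample in each group, counting intervals do not cover the spread between mice or cultures. No paired analysis was possible because each group has 1 sample, and no label explains the numbers 1 and 2 that the columns of every sample carry.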

Other observations

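In the naive and stem-like memory list 22 of 28 genes had less RNA in aged TRM than in young TRM and 6 had more. Of all 11575 tested genes, 49.2% had a log2 ratio above 0 there, and the list was chosen with earlier results known. None of the 6 list genes with more RNA was called, and the 3 given here were chosen after their values were seen. Il7r, which encodes the IL-7 receptor alpha chain, had 203 CPM in aged TRM, 109 CPM in young TRM and 139 CPM in young TCR. Xcl1, a chemokine gene, had 466 CPM in aged TRM, 244 CPM in young TRM and 124 CPM in young TCR, with a log2 ratio of 0.93 for age. Cxcr5, a follicular homing receptor gene, had 10.8 CPM in aged TRM, 4.94 CPM in young TRM and 16.6 CPM in young TCR, with a log2 ratio of 0.99 for age.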
